A study of Homo sapiens with 4 samples.

Results

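Microexons are described here in the human line MDA-LM2, breast cancer cells that were derived from MDA-MB-231 by selection in animals for growth in the lung. One group of cells was transfected by lipofection with an RNA called the SSE mimetic (2 samples) and the other with a scrambled oligo (2 samples). Both groups were the same line in the same medium, and the labels give no dose or time after transfection. The authors deposited 1 pooled read set per group, so no value below has a spread between samples, and nothing in the labels states that those samples were separate cultures. A microexon was taken as any distinct skipped exon of 27 nt or less that was listed in both groups. Where several events shared a skipped exon, the event best covered by isoform-specific reads was kept, that is by reads that match only the isoform with the exon or only the isoform without it. The rule used length alone and found 845 microexons in 717 genes, among 39120 distinct skipped exons in 13409 genes.

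Microexons are exons so short that the spliceosome has little room to recognise them, and many depend on enhancer sequences in the intron beside them. In neurons, the serine/arginine-rich proteins SRRM4 (also called nSR100) and SRRM3 switch on a conserved set of them. Most of that set keep the reading frame and add a few residues at the surface of proteins of the cytoskeleton, of vesicle traffic and of signalling. In cells without that programme the same microexons are mostly skipped. Neither SRRM4 nor SRRM3, with 1 skipped exon each in these tables, had an isoform-specific read in either group, and of 19 neuronal marker genes 14 had a skipped exon in the tables and 11 had such reads, 66 in all in SSE mimetic cells and 222 in scrambled cells. The listed genes of mesenchymal-like breast cancer lines had 613 such reads in SSE mimetic cells and 5797 in scrambled cells, of which CD44 alone gave 466 in SSE mimetic cells and 4281 in scrambled cells. Epithelial marker genes had 160 in SSE mimetic cells and 569 in scrambled cells, muscle genes 89 in SSE mimetic cells and 152 in scrambled cells, and blood genes 19 in SSE mimetic cells and 26 in scrambled cells. These sums depend on which genes have skipped exons and are not expression levels.

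The following sequences are those on which the results turn. Each is the mature transcript sequence 5′ to 3′ of a GENCODE release 29 transcript (GRCh38, that is hg38), with the microexon in capitals and the 20 bases of the exons on either side in lower case, so that the capitals mark what skipping removes. The first is a mostly kept microexon of DST, which encodes a giant spectraplakin linker between actin and microtubules, at chr6:56468982-56468999 on the minus strand.
DST, 18 nt: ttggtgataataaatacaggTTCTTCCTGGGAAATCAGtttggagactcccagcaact
The next 3 had the largest differences or the smallest p-values, although none was called. They are at chr2:101868029-101868037 (MAP4K4, plus strand), chr17:59687001-59687021 (CLTC, plus strand) and chr3:37337143-37337163 (GOLGA4, plus strand).
MAP4K4, 9 nt: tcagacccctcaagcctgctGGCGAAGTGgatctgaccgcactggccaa
CLTC, 21 nt: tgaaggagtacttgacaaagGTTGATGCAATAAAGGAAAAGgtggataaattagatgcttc
GOLGA4, 21 nt: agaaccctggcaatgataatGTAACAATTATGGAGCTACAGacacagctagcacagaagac
The following were spliced both ways, at chr19:41239694-41239720 (AXL, plus strand), chr19:10808569-10808580 (DNM2, plus strand), chrX:154357251-154357274 (FLNA, minus strand) and chr10:31839305-31839319 (ARHGAP12, minus strand).
AXL, 27 nt: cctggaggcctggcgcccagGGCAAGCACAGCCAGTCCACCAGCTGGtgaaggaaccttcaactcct
DNM2, 12 nt: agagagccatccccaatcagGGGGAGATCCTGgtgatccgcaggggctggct
FLNA, 24 nt: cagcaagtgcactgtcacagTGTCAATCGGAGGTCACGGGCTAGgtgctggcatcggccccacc
ARHGAP12, 15 nt: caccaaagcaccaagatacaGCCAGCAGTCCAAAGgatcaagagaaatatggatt
The last set shows the extremes, a 27-nt exon of UQCRH that was nearly always kept (chr1:46309101-46309127, plus strand) and exons of 6 and 3 nt in CLIP1 (chr12:122276439-122276444, minus strand) and AP2M1 (chr3:184180645-184180650 and chr3:184180842-184180844, plus strand) that no read included.
UQCRH, 27 nt: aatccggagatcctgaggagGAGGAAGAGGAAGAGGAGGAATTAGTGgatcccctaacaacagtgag
CLIP1, 6 nt: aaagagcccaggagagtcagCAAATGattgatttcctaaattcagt
AP2M1, 6 nt: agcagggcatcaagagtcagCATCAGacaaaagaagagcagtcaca
AP2M1, 3 nt: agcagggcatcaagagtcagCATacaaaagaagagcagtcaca

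Microexons were mostly coding and mostly kept the reading frame. By GENCODE release 29, 626 of the 845 (74.1%) lay wholly in coding sequence, 33 partly so, 50 in 5′ UTRs, 12 in 3′ UTRs and 86 in noncoding transcripts, while 38 matched no annotated exon exactly. A length that is a multiple of 3 nt was found in 599 of 845 (70.9%), against 40.0% of exons over 27 nt. Among wholly coding exons the shares were 492 of 626 microexons (78.6%) and 48.1% of 18192 longer exons. The share was 79.4% at 1 to 9 nt, 78.1% at 10 to 18 nt and 64.7% at 19 to 27 nt. The most frequent lengths were 27 nt (123 exons), 24 nt (100 exons) and 21 nt (79 exons). Their flanking introns were somewhat shorter, with medians of 1910 nt upstream and 1880 nt downstream, against 2413 and 2298 nt for longer exons.

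**Figure D1:**
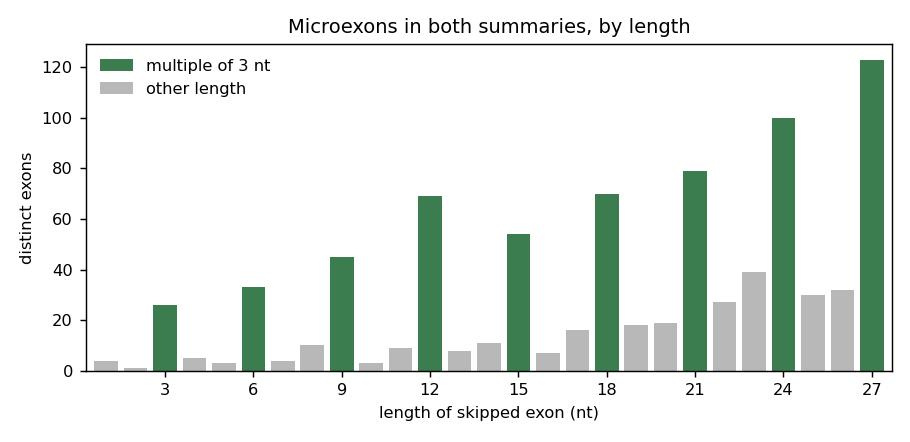
Number of distinct microexons in both groups (y axis, exons) by exon length (x axis, nt), with lengths that are multiples of 3 nt in green and other lengths in grey. Each multiple of 3 from 3 to 27 nt stands above the lengths beside it, up to 123 exons at 27 nt.

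The exon sequences themselves, for the 807 microexons with an exact annotated match, had a median GC content of 45.8%, against 49.2% in longer annotated exons. The first exon base was G in 34.9% of microexons and 42.8% of longer exons, and the last 2 bases were AG in 55.6% and 55.8%. Among the 165 matched microexons with a Ψ under 0.1 in scrambled cells (at least 10 isoform-specific reads), 30.3% began with G, against 41.5% of the 82 with a Ψ of 0.1 or more. Over all annotated exons the same split gave 37.1% and 44.1%, so that the lower share among skipped exons was not limited to microexons.

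The splicing of each exon was measured by Ψ (percent spliced in), which the authors estimated with MISO as a fraction from 0 (always skipped) to 1 (always kept). Ψ is given with its 95% credible interval. The reads behind it are inclusion reads, which match only the isoform with the exon, skipping reads, which match only the isoform without it, and reads shared by both. Inclusion and skipping reads together are called isoform-specific. Intervals and upper limits cover counting error only, since the labels name no molecular identifiers and such reads can be copies of 1 molecule.

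Depth limited how many microexons could be compared. Over all 845, SSE mimetic cells had 3029 isoform-specific reads, of which 35.9% were inclusion reads. Scrambled cells had 17646, of which 36.1% were inclusion reads. The ratio of scrambled to SSE mimetic reads was 5.83 over microexons and 4.79 over all 39120 distinct exons, with 389432 such reads in SSE mimetic cells and 1863874 in scrambled cells. At least 10 isoform-specific reads were present for 61 microexons in SSE mimetic cells and for 259 in scrambled cells, and the 61 were all among the 259. Thus 61 microexons in 52 genes (7.22%) reached 10 in each group and were tested, 198 reached it in scrambled cells alone, and 586 reached it in neither. Of exons over 27 nt, 21.3% were tested. All numbers on tested microexons describe these 61 and not the 845.

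Microexons were predominantly skipped in scrambled cells, which had the depth for 259 of them. A Ψ under 0.1, called near-skipped here, was found for 174 of 259 (67.2%, exact 95% binomial interval 61.1 to 72.9), against 17.5% of all 18530 exons with that depth. The other microexons comprised 66 (25.5%, 20.3 to 31.2) with a Ψ from 0.1 to 0.9 and 19 (7.34%, 4.47 to 11.2) above 0.9, called near-included. By the share of inclusion reads in place of Ψ, 41 of the 259 (15.8%) lay from 0.1 to 0.9. Of all exons with that depth, by Ψ, 54.0% lay from 0.1 to 0.9 and 28.5% above 0.9. The median Ψ was 0.05 for microexons and 0.79 for all exons. No inclusion read at all was seen for 156 of the 259 microexons, and both kinds of read were seen for 77. The depth counts inclusion and skipping reads together. In scrambled cells, 8.40% of exons of 1 to 9 nt had an inclusion read and 61.8% a skipping read. At 76 to 150 nt these shares were 80.2% and 35.2%. Exons of different lengths can therefore reach the depth through different kinds of read. The part of this in the contrast with all exons was not tested.

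Among exons with the depth, skipping was mostly more frequent in the shorter length classes, and the limit on depth applies here too. Without any inclusion read in scrambled cells were 33 of 37 microexons of 1 to 9 nt (89.2%), 51 of 71 of 10 to 18 nt (71.8%) and 72 of those of 19 to 27 nt (47.7%). The shortest microexon with an inclusion read had 6 nt, in HOOK2. How well the aligner placed reads across exons this short was not tested, so a share of 0 is a statement about aligned reads. Among tested exons the near-skipped share in scrambled cells was 88.9% at 1 to 9 nt, 68.4% at 10 to 18 nt and 54.5% at 19 to 27 nt. It was 34.6% at 28 to 50 nt, 21.0% at 51 to 75 nt and 15.5% at 76 to 150 nt. Just inside the limit, the 10 tested exons of 25 to 27 nt had a median Ψ of 0.52 in SSE mimetic cells and 0.54 in scrambled cells. No exon lay near that scrambled median, since no tested microexon had a scrambled Ψ between 0.23 and 0.75. By length, the scrambled median was 0.05 at 25 nt (2 exons), 0.475 at 26 nt (2 exons) and 0.86 at 27 nt (6 exons). Just outside, the 9 tested exons of 28 to 30 nt had a median Ψ of 0.06 in SSE mimetic cells and 0.09 in scrambled cells. Near-skipped in scrambled cells were 4 of the 10 and 5 of the 9.

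**Figure D2:**
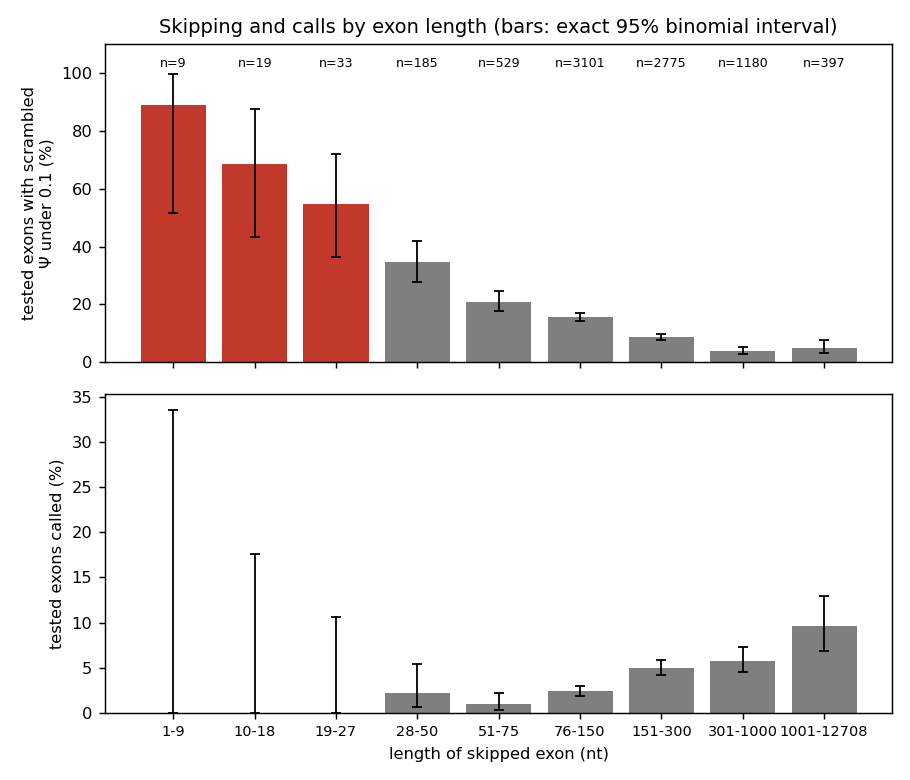
Tested exons by length class (x axis, nt), microexons in red and longer exons in grey: the share with Ψ under 0.1 in scrambled cells (upper panel, %) and the share called (lower panel, %), with exact 95% binomial intervals and the number of exons on top. The near-skipped share was 88.9% at 1 to 9 nt and 5.04% above 1000 nt, and no class of 27 nt or less held a called exon.

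None of the 61 tested microexons was called between the SSE mimetic and scrambled groups. Calls needed a Bayes factor of 10 or more in the authors' table together with a Ψ difference of 0.1 or more. Calls made up 3.99% of all 8228 tested exons, with 3.1% higher and 0.887% lower in SSE mimetic cells. A share of 0 of 61 has an upper exact 95% binomial limit of 5.87%, which lies above 3.99%, so the count of 0 is no result about microexons as a class. In the authors' deposited table the largest Bayes factor of a tested microexon was 1.23 and the median was 0.13. Credible intervals of the groups were apart in 0 of 61 microexons and in 5.87% of all tested exons. In Fisher's exact test (two-sided) on inclusion and skipping reads, which compares the pooled libraries and not the conditions, 0 of 61 passed after Benjamini-Hochberg adjustment over all 8228 exons, where 1.01% did. At an unadjusted p under 0.05 there were 2 of 61, against 5.51% of all tested exons.

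Ψ of microexons was close in the groups. The median Ψ over the 61 was 0.08 (interquartile range 0.04 to 0.67) in SSE mimetic cells and 0.02 (0.01 to 0.75) in scrambled cells. Near-skipped were 34 of 61 in SSE mimetic cells (55.7%, 42.4 to 68.5) and 39 of 61 in scrambled cells (63.9%, 50.6 to 75.8). Among longer tested exons these shares were 7.82% in SSE mimetic cells and 11.8% in scrambled cells. Near-included were 5 of 61 in SSE mimetic cells and 7 of 61 in scrambled cells. Across the 61, Ψ in the groups had a Pearson correlation of 0.993 and a Spearman correlation of 0.877, a description over exons that are not independent samples. The difference in Ψ (SSE mimetic minus scrambled) ranged from -0.20 to 0.10, with a median of 0.02, and was at least 0.1 in size in 3 of 61 (4.92%), against 37.1% of longer tested exons. Microexons had narrower credible intervals, with median widths of 0.16 in SSE mimetic cells and 0.04 in scrambled cells, against 0.35 in SSE mimetic cells and 0.15 in scrambled cells for longer exons. Of the 61, 30 had no inclusion read in either group, against 1.98% of longer tested exons. The part of these features in the smaller differences of microexons was not tested.

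**Figure D3:**
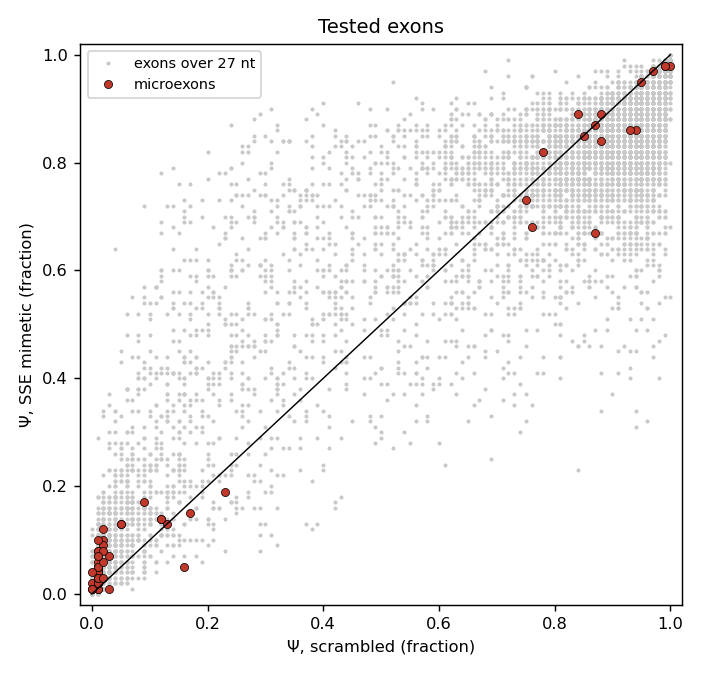
Ψ in SSE mimetic cells (y axis, fraction) against Ψ in scrambled cells (x axis, fraction) for the 61 tested microexons (red) and longer tested exons (grey), with the line of equality. Microexons sat at the low and high ends near the line, with differences between -0.20 and 0.10.

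Most microexons with a higher Ψ in SSE mimetic cells had no inclusion read. Ψ was higher in SSE mimetic cells in 41 microexons, lower in 13 and equal in 7. Of the 41, 30 had no inclusion read in either group, so that the share of inclusion reads was 0 in each, and their Ψ differences ran from 0.01 to 0.10. These 30 had 10 to 62 skipping reads (median 15) in SSE mimetic cells and 26 to 474 (median 96.5) in scrambled cells. The part of depth in those differences was not tested. Among the 25 microexons with an inclusion read in each group, Ψ was higher in SSE mimetic cells in 8 and lower in 11, and the median difference was 0. By the share of inclusion reads, 12 of the 61 were higher in SSE mimetic cells, 15 were lower and 34 were equal. Exons with no inclusion read in either group made up 30 of 61 tested microexons (49.2%) and 1.98% of longer tested exons.

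MAP4K4, a kinase of the Ste20 family that acts on cell motility and JNK signalling, had the smallest p-value. Its 9-nt coding microexon, printed above, had 0 inclusion and 26 skipping reads in SSE mimetic cells and 8 inclusion and 42 skipping reads in scrambled cells. Ψ was 0.05 (0.00 to 0.11) in SSE mimetic cells and 0.16 (0.08 to 0.26) in scrambled cells, and the intervals overlapped. In the authors' deposited table the Bayes factor was 1.23, and Fisher's exact test gave p = 0.0453 and an adjusted p of 0.851. Given the scrambled reads, even a share of 0% in 26 SSE mimetic reads could not pass after adjustment. The adjusted test could therefore not show lower inclusion here.

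CLTC encodes the clathrin heavy chain, which forms the coat of endocytic vesicles. Its 21-nt microexon had 0 inclusion and 121 skipping reads in SSE mimetic cells and 14 inclusion and 410 skipping reads in scrambled cells. That is a share of 0%, which allows up to 2.48%, in SSE mimetic cells and of 3.30% (exact interval 1.82 to 5.48) in scrambled cells. Fisher's exact test gave p = 0.0475 and an adjusted p of 0.870. As in MAP4K4, a share of 0% in SSE mimetic cells could not pass after adjustment, so the adjusted p decides nothing about lower inclusion. Ψ was 0.01 (0.00 to 0.03) in SSE mimetic cells and 0.03 (0.02 to 0.04) in scrambled cells.

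The largest difference was that of GOLGA4, a golgin that tethers vesicles at the trans-Golgi. Its 21-nt microexon had a Ψ of 0.67 (0.37 to 0.90) in SSE mimetic cells, from 10 inclusion and 2 skipping reads, and 0.87 (0.77 to 0.94) in scrambled cells, from 81 and 5. In the authors' deposited table the Bayes factor was 0.68, and Fisher's exact test gave p = 0.204, so this difference passed neither test. The 12 isoform-specific reads in SSE mimetic cells make its interval wide.

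The remaining microexons with lower Ψ in SSE mimetic cells by 0.07 or 0.08 were in ANXA6, DIAPH1 and HNRNPC. ANXA6, a calcium-dependent membrane-binding annexin, had an 18-nt microexon (chr5:151110627-151110644) with a Ψ of 0.68 (0.37 to 0.89) in SSE mimetic cells and 0.76 (0.69 to 0.83) in scrambled cells. DIAPH1, a formin that nucleates actin filaments, had a 27-nt microexon with 10 inclusion and 0 skipping reads in SSE mimetic cells and 43 and 1 in scrambled cells. HNRNPC, an RNA-binding protein of nascent transcripts, had a 26-nt exon in its 5′ UTR with a Ψ of 0.86 (0.77 to 0.92), from 78 inclusion and 7 skipping reads, in SSE mimetic cells. In scrambled cells it was 0.93 (0.92 to 0.95), from 945 and 50. The HNRNPC intervals touched at 0.92, and Fisher's exact test gave p = 0.204 and an adjusted p of 1. It was the only tested microexon among 108 listed splicing factor genes.

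The largest difference towards higher Ψ in SSE mimetic cells, in DYNC1I2, an intermediate chain of the dynein motor, came with 0 inclusion reads with 10 skipping reads in SSE mimetic cells and 0 with 38 in scrambled cells. Its Ψ was 0.12 (0.02 to 0.29) in SSE mimetic cells and 0.02 (0.00 to 0.08) in scrambled cells. The same held for SMAGP, CLIP1, SSR1, SNX5 and the 15-nt exon of RAPGEF6, with differences of 0.07 to 0.09 and shares of 0% in each group. Inclusion reads were present for CD47, the cell-surface signal that restrains engulfment by macrophages. Its 25-nt exon (chr3:108050578-108050602) had 2 inclusion and 14 skipping reads in SSE mimetic cells and 5 and 53 in scrambled cells, with Ψ of 0.17 (0.04 to 0.34) in SSE mimetic and 0.09 (0.04 to 0.17) in scrambled cells. FMNL1, another formin, had 1 inclusion and 9 skipping reads in SSE mimetic cells and 1 and 35 in scrambled cells.

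**Figure D4:**
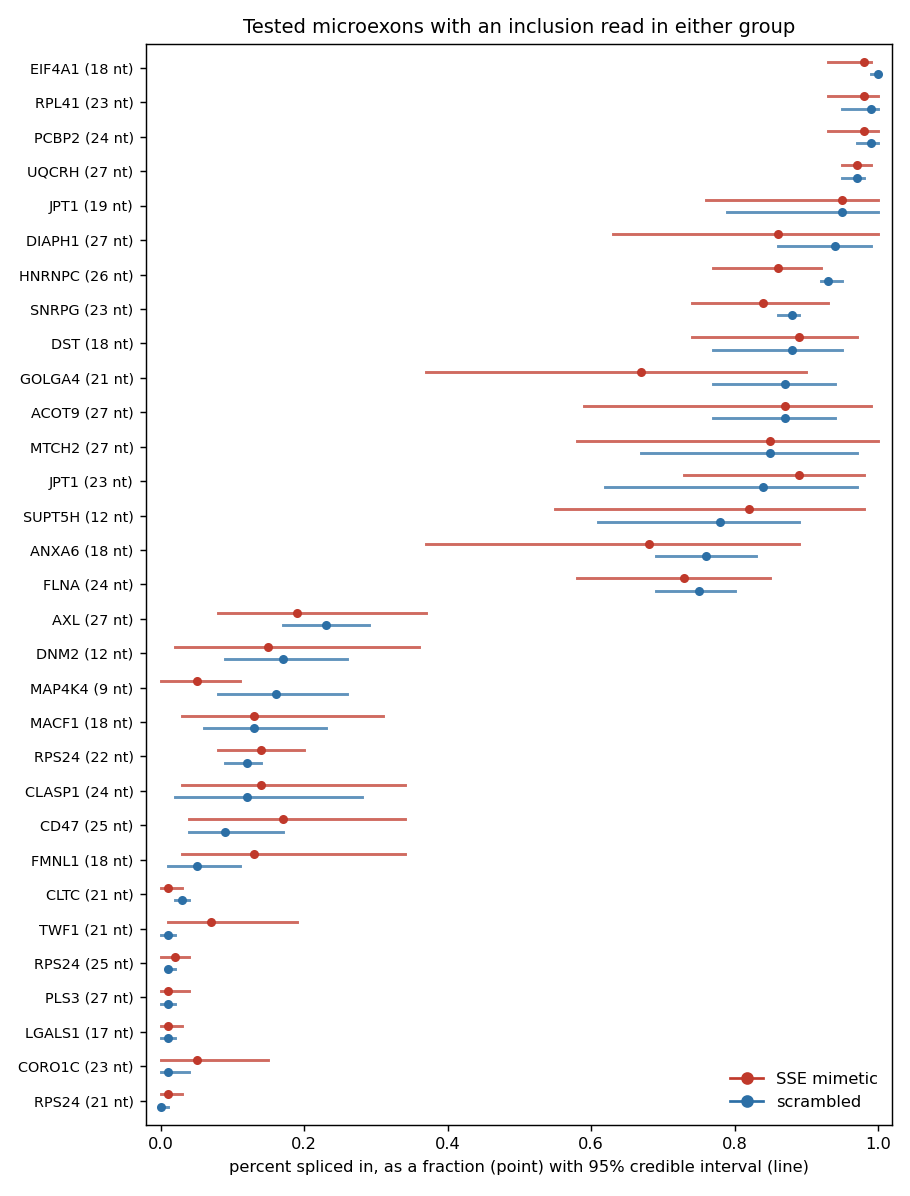
Ψ (x axis, fraction) of the 31 tested microexons with an inclusion read in either group, ordered by scrambled Ψ, with SSE mimetic cells in red above scrambled cells in blue; points are the authors' estimates and lines their 95% credible intervals. The intervals of the groups met or overlapped in every exon shown, and the gap between AXL at 0.23 and FLNA at 0.75 in scrambled cells held no tested microexon.

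Some microexons were spliced both ways in this cell line at measurable depth. FLNA, which encodes the actin cross-linker filamin A, had a 24-nt microexon with 45 inclusion, 8 skipping and 446 shared reads in SSE mimetic cells and 304, 56 and 2529 in scrambled cells. The inclusion share was 84.9% (72.4 to 93.3) in SSE mimetic cells and 84.4% (80.3 to 88.0) in scrambled cells, while Ψ, which also uses the shared reads, was 0.73 (0.58 to 0.85) in SSE mimetic cells and 0.75 (0.69 to 0.80) in scrambled cells. AXL, a receptor tyrosine kinase prominent in mesenchymal-like breast cancer cells, had a 27-nt microexon in the extracellular part of the coding sequence. It had 6 inclusion and 10 skipping reads in SSE mimetic cells, a share of 37.5% (15.2 to 64.6), and 47 and 55 reads in scrambled cells, a share of 46.1% (36.2 to 56.2). Its Ψ was 0.19 (0.08 to 0.37) in SSE mimetic cells and 0.23 (0.17 to 0.29) in scrambled cells, well below the shares of reads. The 22-nt 3′ UTR exon of RPS24, a ribosomal protein gene with known alternative 3′ ends, had a Ψ of 0.14 (0.08 to 0.20) in SSE mimetic cells and 0.12 (0.09 to 0.14) in scrambled cells. Its inclusion shares were higher than Ψ, at 27.3% (18 of 66 reads, 17.0 to 39.6) in SSE mimetic cells and 22.4% (89 of 398, 18.4 to 26.8) in scrambled cells.

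Near-included in scrambled cells were the tested microexons of UQCRH, EIF4A1, RPL41, PCBP2, HNRNPC and DIAPH1 and the 19-nt exon of JPT1. UQCRH, the hinge subunit of mitochondrial complex III, had 246 inclusion and 4 skipping reads in SSE mimetic cells, a share of 98.4% (96.0 to 99.6). In scrambled cells it had 823 and 16, a share of 98.1% (96.9 to 98.9). EIF4A1, the RNA helicase of translation initiation, had 84 inclusion and 1 skipping read in SSE mimetic cells and 349 and 0 in scrambled cells. Which junctions of this 18-nt form the inclusion reads crossed was not tested. A longer exon with the same 3′ end may share them, so these counts are no measure of the 18-nt form alone. RPL41, a ribosomal protein, had 128 inclusion reads and PCBP2, a poly(C)-binding protein, had 100 in SSE mimetic cells. In scrambled cells RPL41 had 456 and PCBP2 had 191, and neither had a skipping read in either group. Just below came the 23-nt second exon of SNRPG, the Sm protein G of spliceosomal snRNPs, which is coding and not a multiple of 3. It had 48 inclusion and 6 skipping reads in SSE mimetic cells, a share of 88.9% (77.4 to 95.8), and 1218 and 147 in scrambled cells, a share of 89.2% (87.5 to 90.8). Genes such as RPL41, RPS24, SNRPG, HNRNPC and UQCRH have close copies elsewhere in the genome, and how reads with several placements were handled is not given in the sources used here, so their values are uncertain to that extent.

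The deepest near-skipped microexons set tight limits on inclusion. LGALS1, the secreted lectin galectin-1, had a 17-nt coding microexon with 2 inclusion and 179 skipping reads in SSE mimetic cells, a share of 1.10% (0.134 to 3.93), and 2 and 390 in scrambled cells, a share of 0.510% (0.0618 to 1.83). The 14-nt 5′ UTR microexon of EEF1D, a subunit of the elongation factor 1 complex, had 0 inclusion reads among 38 in SSE mimetic cells, which allows up to 7.89%, and among 474 in scrambled cells, which allows up to 0.633%. For the 9-nt noncoding-transcript microexon of RAPGEF6, an exchange factor for Rap GTPases, there were 0 of 62 in SSE mimetic cells and 0 of 204 in scrambled cells. PLS3, the actin-bundling plastin 3, had a 27-nt coding microexon with 0 inclusion and 61 skipping reads in SSE mimetic cells and 3 and 337 in scrambled cells.

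The 5 shortest tested microexons were all near-skipped in scrambled cells. No read included the 6-nt exon of CLIP1, a plus-end tracking protein of microtubules, among 12 isoform-specific reads in SSE mimetic cells and 80 in scrambled cells. For the 6-nt exon of DCTN2, the dynamitin subunit of dynactin, there were 0 of 12 in SSE mimetic cells and 0 of 53 in scrambled cells. AP2M1, the cargo-binding subunit of the AP-2 endocytic adaptor, had 0 of 22 in SSE mimetic cells and 0 of 129 in scrambled cells for its 6-nt exon. Its 3-nt exon, annotated with a downstream intron of only 4 nt, is skipped by the same junction and rests on the same reads. Whether a read could be aligned across a gap of 4 nt was not tested, so the count of 0 for that exon is no measure of skipping. The 3-nt exon of RPS24 had 0 of 10 in SSE mimetic cells and 0 of 48 in scrambled cells. The downstream exon of that event is the 22-nt RPS24 microexon, so these skipping reads join to an exon that is itself mostly skipped. A count of 0 in SSE mimetic cells allows an inclusion share of up to 13.6% in the 6-nt exon of AP2M1 and up to 25% in CLIP1. In scrambled cells it allows up to 2.33% in that AP2M1 exon and 3.75% in CLIP1. In all, 11 of the 61 tested microexons shared a skipping junction with another, in RPS24, JPT1, EWSR1 and AP2M1, which left 55 distinct junctions.

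Genes with known neural microexons, a list of 103, held 99 of the 845 microexons in 64 genes. In scrambled cells 37 of these had 10 or more isoform-specific reads, of which 27 were near-skipped, 10 lay between 0.1 and 0.9 and none was near-included. Of all 259 microexons with that depth, 174 (67.2%) were near-skipped. Tested were 8, in CLASP1, DNM2, DST, MACF1, MAP4K4 and RAPGEF6, and 0 were called. Calls made up 3.99% of all tested exons, so 0 among 8 is no result about these genes. Their difference in Ψ had a median of 0.01 (range -0.11 to 0.07), higher in SSE mimetic cells in 5, lower in 2 and equal in 1, beside a median of 0.02 over all tested microexons and of -0.03 over longer tested exons. DNM2, the dynamin that severs endocytic vesicles, had a 12-nt microexon with 1 inclusion and 9 skipping reads in SSE mimetic cells and 12 and 53 in scrambled cells. Its Ψ was 0.15 (0.02 to 0.36) in SSE mimetic cells and 0.17 (0.09 to 0.26) in scrambled cells. CLASP1, a microtubule plus-end protein, had a 24-nt microexon with 1 and 10 reads in SSE mimetic cells and 2 and 17 in scrambled cells. Below the depth for testing, the 12-nt microexon of the histone demethylase gene KDM1A, a known neural one, had 0 inclusion reads beside 6 skipping reads in SSE mimetic cells and beside 42 in scrambled cells.

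The spectraplakin genes DST and MACF1 each had a tested 18-nt microexon, and these were spliced differently. The DST exon had 20 inclusion and 1 skipping read in SSE mimetic cells and 57 and 5 in scrambled cells, with Ψ of 0.89 (0.74 to 0.97) in SSE mimetic and 0.88 (0.77 to 0.95) in scrambled cells. The MACF1 exon had 2 inclusion and 12 skipping reads in SSE mimetic cells and 6 and 35 in scrambled cells, with Ψ of 0.13 (0.03 to 0.31) in SSE mimetic and 0.13 (0.06 to 0.23) in scrambled cells. So the DST exon was mostly kept and the MACF1 exon mostly skipped in each group, with intervals far apart between the genes and overlapping between the treatments. A further 15-nt microexon of MACF1 had 0 inclusion reads among 53 in SSE mimetic cells, which allows up to 5.66%, and among 90 in scrambled cells, which allows up to 3.33%.

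A search for microexons of like sequence and equal length, over those of at least 12 nt, was chosen after values were seen. It found 37 pairs identical at 75% or more of bases, of which 7 had at least 10 isoform-specific reads for both exons in scrambled cells. Those 7 include DST with MACF1, the identical 22-nt exons of ZNF431 and ZNF714, and short exons of SLIT2 and USO1. Described here are pairs of related genes that were shallower than DST and MACF1. The 21-nt microexons of the translation initiation scaffolds EIF4G1 and EIF4G3 were identical at 17 of 21 bases and neither had an inclusion read. EIF4G1 had 9 skipping reads in SSE mimetic cells and 50 in scrambled cells, and EIF4G3 had 3 in SSE mimetic cells and 22 in scrambled cells. The 27-nt microexons of MARK2 and MARK3, kinases that act on microtubule-associated proteins, were identical at 21 of 27 bases. In scrambled cells MARK2 had 9 inclusion and 10 skipping reads and a Ψ of 0.42 (0.23 to 0.63), and MARK3 had 20 and 3 and a Ψ of 0.72 (0.50 to 0.93). In SSE mimetic cells MARK2 had 1 isoform-specific read and MARK3 had 0, so no level can be read there.

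Microexons of cytoskeletal and adhesion genes numbered 60 in 39 of 102 listed genes. Of 36 with depth in scrambled cells, 26 were near-skipped, 9 intermediate and 1 near-included, and of 9 tested 0 were called, with a median difference in Ψ of 0.01 (-0.08 to 0.08). Vesicle traffic genes held 26 microexons, of which 17 had the depth (11 near-skipped, 6 intermediate) and 5 were tested, with a median difference of -0.02 (-0.20 to 0.04) and 0 called. Kinase, phosphatase and GTPase signalling genes held 39, of which 22 had the depth (16 near-skipped, 6 intermediate) and 3 were tested, with 0 called. Chromatin and transcription genes held 15, of which 6 had the depth, 2 near-skipped and 4 intermediate, and 0 were tested. Genes of splicing factors held 3 microexons. With 3.99% of all tested exons called, counts of 0 among so few tested exons are no result about any of these lists.

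Among the 198 microexons with depth in scrambled cells alone, 135 were near-skipped, 51 intermediate and 12 near-included there. Their median number of isoform-specific reads was 3 in SSE mimetic cells and 22 in scrambled cells, and 23 had none in SSE mimetic cells. The deepest with reads of both kinds was the 15-nt coding microexon of ARHGAP12. It had 2 inclusion and 2 skipping reads and a Ψ of 0.53 (0.21 to 0.83) in SSE mimetic cells, and 33 and 48 reads and a Ψ of 0.36 (0.27 to 0.46) in scrambled cells. The 4 others with most reads were PAICS, MARS and PPP1R12A, without an inclusion read in either group, and TGFBI, a matrix protein induced by TGF-β, without a skipping read in either.

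Further microexons of this kind, chosen after their values were seen, were balanced in scrambled cells. The 27-nt microexon of MAX, the dimerisation partner of MYC, had 5 inclusion and 1 skipping read in SSE mimetic cells and 42 and 23 in scrambled cells, and Ψ of 0.64 (0.28 to 0.94) in SSE mimetic and 0.55 (0.43 to 0.67) in scrambled cells. NCOR1, a nuclear receptor corepressor, had 2 and 3 reads in SSE mimetic cells and 26 and 14 in scrambled cells for a 27-nt microexon, and Ψ of 0.39 (0.10 to 0.75) in SSE mimetic and 0.54 (0.38 to 0.69) in scrambled cells. The 12-nt microexon of VPS29, a retromer subunit, had 1 and 1 in SSE mimetic cells and 24 and 12 in scrambled cells. FNBP1, a membrane-curving F-BAR protein, had 2 and 7 in SSE mimetic cells and 17 and 36 in scrambled cells for a 15-nt microexon. Fewer than 10 isoform-specific reads in SSE mimetic cells left these without a comparison.

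What Fisher's exact test could have shown at this depth was computed for each tested microexon. Given the scrambled reads as observed, some split of the SSE mimetic reads, in either direction, reaches an unadjusted p under 0.05 by Fisher's exact test in all 61. A fall could not always be seen. For the near-skipped exons of AP2M1, CLIP1 and LGALS1, among others, no lower inclusion share reaches that p. In MAP4K4 and CLTC a share of 0% reaches it only without adjustment. For the 39 near-skipped microexons, the inclusion share needed in SSE mimetic cells was 13.3% in the median (2.76 to 40), and 26.7% (5.52 to 60) for the p that passed after adjustment. For the 7 near-included ones, a share of 95.6% or less in the median (70 to 98.4) would have sufficed unadjusted, and of 93% (50 to 96.1) after adjustment. These limits are for Fisher's exact test alone, and none was computed for the Bayes factor.

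Below the depth for testing, 2 of 784 microexons (0.255%) passed the Bayes factor and the size of difference in the authors' deposited table, against 316 of 30892 untested exons of any length. They were the 27-nt coding exon of SMARCB1, a core subunit of SWI/SNF remodellers (chr22:23800944-23800970), and a 26-nt 5′ UTR exon of XPO1, the nuclear export receptor (chr2:61537562-61537587). SMARCB1 had a Ψ of 0.20 (0.00 to 0.65) in SSE mimetic cells and 0.86 (0.64 to 0.99) in scrambled cells, and XPO1 had 0.27 (0.01 to 0.70) in SSE mimetic cells and 0.91 (0.78 to 0.99) in scrambled cells. Neither had an isoform-specific read in SSE mimetic cells, where SMARCB1 had 36 shared reads and XPO1 had 23. In scrambled cells SMARCB1 had 22 inclusion, 0 skipping and 127 shared reads, and XPO1 had 44, 1 and 181. The low SSE mimetic Ψ of these 2 exons therefore rested on shared reads alone.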

How the data were processed

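RNA of 2 SSE mimetic and 2 scrambled samples was sequenced. Reads were aligned with STAR 2.7 to hg38, per the submitters' processing notes. The deposited tables are MISO skipped-exon summaries, 1 per group, and 1 comparison, per the file headers. How samples were pooled, and the events and version of MISO, is not given in the sources used here. Ψ as deposited by the authors is a fraction with credible bounds, the deposited Bayes factor is a ratio, and the deposited difference is a score, SSE mimetic Ψ less scrambled Ψ. Reads per isoform class were taken from the authors' text field.

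Exons were matched to GENCODE release 29. An exon was tested from 10 isoform-specific reads per group upward and called at a Bayes factor of at least 10 and a difference of at least 0.1. Fisher's exact test (SciPy 1.17.1, Python 3.11.15), checked on simulated data, was adjusted over all 8228 tested exons. Binomial intervals are exact (Clopper-Pearson, 95%), treat exons as independent and are too narrow where exons share a junction. The limit for a count of 0 is 3 reads of the total. Figures were drawn with Matplotlib 3.10.9.

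The members, the gene lists and the tests were chosen with earlier results of these data known. Named were called or Fisher-passing microexons (none), the 8 largest differences per direction, the 10 deepest, the tested ones of neural microexon genes, the 5 deepest with depth in the scrambled group alone and the 5 shortest tested; 38 met this. One sequence is not reported here. Others are named where a count or pair needed them, with values seen. Alternatives were minima of 5 and 20 reads, no minimum, inclusion shares in place of Ψ, other length limits, other events of an exon and 1 exon per skipping junction.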

Additional observations from a re-analysis of the deposited data

How the results depend on the processing

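No paired analysis was possible because each group was deposited as 1 pooled read set, and for the same reason no replicate could be left out. The number of called microexons was 0 under the other read minima, Bayes factors, differences, length limits and sets of events tried, and 2 of 845 with no minimum of reads, an alternative chosen after seeing the data. By Fisher's exact test the number was 0 with adjustment and 2 without. The median difference in Ψ, 0.02, was 0.04 with a minimum of 5 reads (124 exons), 0.01 with 20 reads (28 exons), 0 by inclusion shares and 0.04 up to 15 nt (17 exons). In the same order of alternatives, the median Ψ was 0.12, 0.04, 0 and 0.05 in the SSE mimetic group, where it was 0.08, and 0.04, 0.01, 0.00510 and 0.01 in the scrambled group, where it was 0.02. Microexons with a scrambled Ψ from 0.1 to 0.9, 66 of 259, became 154 of 362 with a minimum of 5 reads, 32 of 173 with 20, 41 of 259 by inclusion shares and 12 of 79 up to 15 nt. For named exons, an inclusion share counted as moved where Ψ lay outside the exact binomial interval of the share, with a small margin. Another event of an exon counted as moved where its Ψ lay outside the credible interval of the event used. Of 84 such values, 73 did not move and 11 did, and few reads make these intervals wide. Of the 11, 6 were other events of the EEF1D exon with 0 to 6 isoform-specific reads, and 5 were inclusion shares in place of Ψ in ANXA6, AXL, FLNA and RPS24, where the cause was not tested. With 1 exon per skipping junction (55 exons), also chosen after seeing the data, the medians were the same. Depth in the SSE mimetic group limits every comparison.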

Other observations

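Microexons listed for a single group entered no comparison. The SSE mimetic summary alone listed 27, with 2 inclusion and 1 skipping read in all. The scrambled summary alone listed 65, with 79 inclusion and 85 skipping reads.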
